A study of Mus musculus with 12 samples.

Results

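The 40 genes described here drive or restrain the cell division cycle. They were chosen by symbol, as 18 genes of G1/S and DNA replication, 17 genes of G2/M and mitosis and 5 inhibitors of cyclin-dependent kinases (CDK), and all 40 were found in a table of 37681 genes. RNAseq counts came from the kidney cortex of 3 TRACK (TG+) and 3 TG− male mice of the C57BL/6 strain, 18 months old, with 2 libraries per mouse, 1 from each kidney. TRACK mice carry γ-HIF1αM3, a mutated and constitutively active HIF1α expressed in the proximal tubules, and the TG− mice are wild-type littermates without the transgene; no mouse was treated. The TG+ mice are 43-29, 43-49 and 43-75, the TG− mice are 43-26, 43-50 and 43-76, and values are given in these orders. The comparison asks which cell cycle transcripts differ in cortex that expresses the transgene.

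Cells divide when cyclins activate CDKs in turn. D-type cyclins with Cdk4 and Cdk6 start the phosphorylation of the retinoblastoma protein, which frees E2F factors to switch on genes of DNA replication, and later the MuvB complex with B-MYB and FOXM1 switches on genes of mitosis. CDK inhibitors hold these kinases in check: p21 (Cdkn1a) is induced by p53 and by several stress signals, and the INK4 proteins block Cdk4 and Cdk6. In the healthy adult kidney few tubule cells divide, and injured tubule cells can enter the cycle or arrest in it.

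Promoters of these genes are known for short regulatory elements, so the 120 bases before the RefSeq start (GRCm38.p6) of 6 members are shown for the letters that E2F, CHR, CCAAT box and p53 elements would take. The first 4 are mitotic genes that were higher in TG+, Mcm6 is a replication gene that was not, and Cdkn1a had the largest fold change of the 39 members tested. Each is read 5′ to 3′ towards its gene. Capitals mark an E2F core (spelled TTCCCGC in its main form and also searched as TTGGCGC and in the form TTCGCGC), a CHR element (TTTGAA and its variant TTCGAA) or the CCAAT box (those letters) on either strand, and in Cdkn1a they mark the p53 response element alone. The stretches lie for Cdk1 at chr10:69352913-69353032 (minus strand), Top2a at chr11:99024190-99024309 (minus strand), Mki67 at chr7:135716380-135716499 (minus strand), Ccnb1 at chr13:100786487-100786606 (minus strand), Mcm6 at chr1:128359706-128359825 (minus strand) and for Cdkn1a at chr17:29090859-29090978 (plus strand).
Cdk1: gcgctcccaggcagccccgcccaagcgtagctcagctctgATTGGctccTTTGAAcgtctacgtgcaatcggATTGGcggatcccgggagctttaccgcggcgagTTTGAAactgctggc
Top2a: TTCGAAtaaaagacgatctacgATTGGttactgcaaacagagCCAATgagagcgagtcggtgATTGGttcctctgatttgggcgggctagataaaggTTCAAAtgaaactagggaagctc
Mki67: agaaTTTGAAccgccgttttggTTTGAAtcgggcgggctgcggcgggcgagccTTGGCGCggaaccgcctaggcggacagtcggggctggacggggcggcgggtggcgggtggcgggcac
Ccnb1: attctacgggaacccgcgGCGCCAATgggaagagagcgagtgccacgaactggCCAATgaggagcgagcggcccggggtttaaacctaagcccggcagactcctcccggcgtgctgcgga
Mcm6: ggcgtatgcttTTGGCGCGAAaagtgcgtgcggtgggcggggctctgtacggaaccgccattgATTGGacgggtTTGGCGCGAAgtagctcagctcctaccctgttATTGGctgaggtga
Cdkn1a: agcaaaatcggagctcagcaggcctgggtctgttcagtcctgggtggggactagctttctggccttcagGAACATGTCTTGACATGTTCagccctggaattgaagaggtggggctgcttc

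In Cdk1, which encodes the kinase that starts mitosis, CHR letters began 71 and 15 bases before the start and CCAAT boxes 80 and 48 bases before it. Top2a had CHR letters 120 and 23 bases before the start, and 3 CCAAT boxes stood between them. Mki67 had CHR letters 116 and 98 bases before the start, and Ccnb1 had CCAAT boxes 99 and 67 bases before it, the first of which overlapped its E2F core. Mcm6 had E2F cores on both strands, in 2 overlapping pairs, 109 and 106 and again 46 and 43 bases before the start, and CCAAT boxes 57 and 14 bases before it. An E2F core also stood 67 bases before the start of Mki67 and 102 before that of Ccnb1. Over windows of 300 bases, from 250 before the start to 50 after it, 13 of the 17 G2/M members had a RefSeq promoter: 10 of these 13 held CHR letters, against 19.4% of all 27025 promoters, and 12 held a CCAAT box, against 37.9%. Of the 14 G1/S members with a promoter, 6 held an E2F core, against 8.21% of all promoters, 2 held CHR letters and 9 a CCAAT box. Of the 5 CDK inhibitors, 2 held an E2F core and 1 each CHR letters and a CCAAT box. The core of the hypoxia response element (ACGTG or GCGTG, either strand), the letters that HIF factors bind, was in 9 of 14 G1/S windows, 10 of 13 G2/M windows and 4 of 5 inhibitor windows, against 43.8% of all promoters. Of the members higher in TG+ at an adjusted p below 0.05, Cdkn1a, Mki67, Top2a and Mcm3 had no such core in their windows. Ccne1, E2f1, Rrm2, Ccnb1, Cdk1, Plk1, Cenpf and Cdkn2b had it, as did members that were not called, among them Cdk4. All these matches describe letters and not binding. Ccnd1, Ccnd2, Ccne2, Mcm4, Ccna2, Aurkb, Kif20a and Foxm1 had no entry in the promoter table.

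In Cdkn1a the capitals mark the p53 response element, which began 51 bases before the start and departs from the consensus at 1 of its 20 letters. This element was searched for after the sequence had been seen. With at most 1 letter off it was found in 1 of 32 member promoters, in 1 of 13 promoters of a list of p53 targets (Ccng1) and in 0.0925% of all promoters, against none of the member promoters with every letter matched and its copies side by side. A search for 2 exact copies of the consensus with up to 13 bases between them matched 1 of 32 member promoters, again Cdkn1a but over a stretch that begins upstream of the capitals, and 0.0592% of all promoters. RefSeq lists 2 starts for Cdkn1a, 2790 bases apart. The start used here, the one listed first, is the upstream one. The window of the downstream start did not hold the element.

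The members' levels per length were read from the deposited RPKM values, averaged over the 2 kidneys of a mouse; these values stay above 0 where a library has 0 reads of a gene, so the lowest levels are too high. In TG− cortex the most abundant member was Ccnd1, which encodes cyclin D1, at 112.6 RPKM (SD 18, n = 3), and in TG+ cortex it stood at 100.3 RPKM (SD 6.09, n = 3). Cdk4, its kinase partner, followed at 10.6 RPKM in TG− mice, and Cdkn1b, which encodes p27, at 8.99 RPKM. Of the 17 G2/M members none reached a mean of 1 RPKM in TG− mice, and 2 (Ccna2 and Ccnb2) did so in TG+ mice. The median level of the group was 0.188 RPKM in TG− and 0.273 RPKM in TG+, against 1.27 and 1.5 RPKM for the G1/S group. The lowest was Ccnb1, which encodes cyclin B1, at 0.0154 RPKM in TG−. Cdkn1a moved from the 8th highest mean of the 40 members in TG− mice to the 2nd highest in TG+ mice, from 3.24 RPKM (SD 1.07, n = 3) to 18.9 RPKM (SD 2.94, n = 3).

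**Figure D1:**
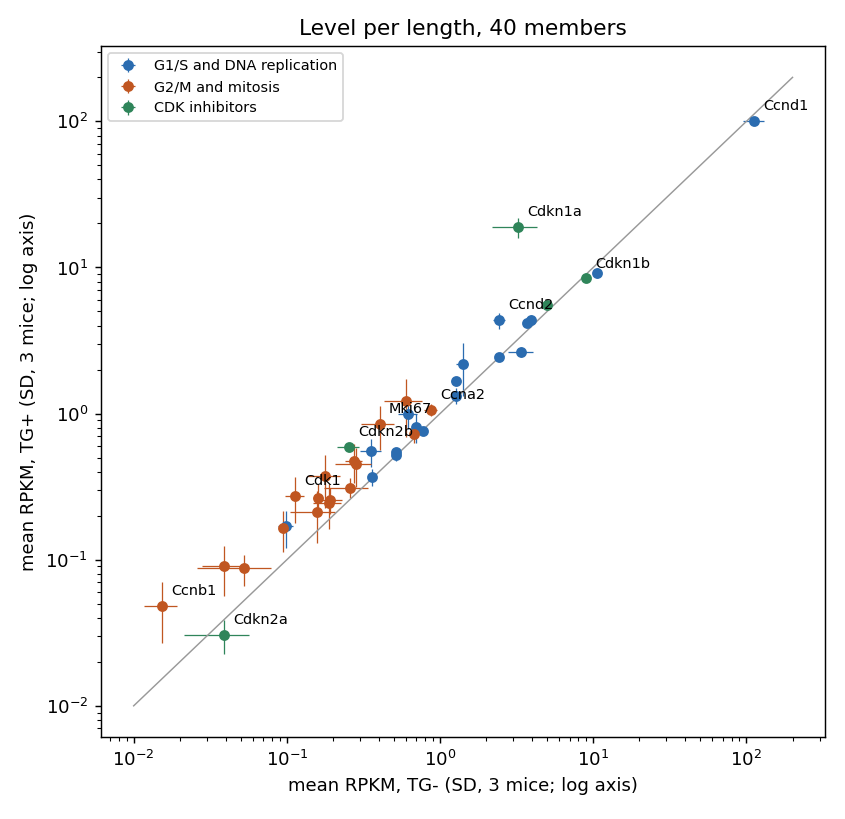
Mean RPKM of the 40 members in TG− mice (horizontal, log axis) and TG+ mice (vertical, log axis), with the SD over 3 mice as bars and the line of equal levels in grey. Cdkn1a lies farthest above the line, Ccnd1 is the most abundant in both genotypes, and the G2/M members lie at the low end.

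Differences between genotypes were tested per mouse, with the counts of its 2 kidneys added up, by edgeR's quasi-likelihood test, and p-values were adjusted by the Benjamini-Hochberg method over 19399 genes. Levels are normalized CPM, counts scaled to the TMM-normalized library size, which suits a comparison of 1 gene between mice and not of genes with each other. Totals per mouse lay between 48052131 and 60506785 reads. In GENCODE, exons of Ccnd1, Ccne2, Cdk2, Cdk4, Mcm7, Top2a, Ccna2, Kif20a and Foxm1 overlap those of another gene (LTO1 for Ccnd1, Ints8 for Ccne2, Pmel for Cdk2, Gm23451 for Top2a and Cdc23 for Kif20a), and since the handling of strand is not stated, shared reads cannot be told apart. Of the 40 members 39 passed the filter on low counts and Cdkn2a did not. At the study's threshold, a fold change above 2 or below 0.5 and an adjusted p under 0.01, 2 of the 39 members were higher in TG+ (Cdkn1a and Cdkn2b), where 3.77% of all genes tested were, and 0 were lower, where 0.211% were. At an adjusted p below 0.05 with no minimum fold, 15 members were higher (38.5%), where 15.4% of all genes were, and 0 were lower, where 10.9% were. The 15 were 5 of 18 G1/S members, 8 of 17 G2/M members and 2 of 4 tested inhibitors, and 7 of them changed more than 2-fold. At an unadjusted p below 0.05 stood 24 of the 39 members and 39.1% of all genes, and DESeq2 called 15 members higher and 0 lower at an adjusted p below 0.05. At the study's threshold the 2 higher members became 6 with DESeq2 and 6 with a replicate block of the pairs of mice that the deposited table's name lists. With each kidney as its own library they became 7, but that fit counts the 2 kidneys of 1 mouse as independent. Over all genes tested, 732 higher genes became 820, 779 and 879 in these 3 fits. Mki67, Cdk1 and Cenpf were called in all 3, but in 5 of the 6 fits without 1 mouse only Cdkn1a was. Below, "rose" refers to an adjusted p below 0.05. The median log2 fold change, TG+ over TG−, was 0.88 in the G2/M group, 0.76 over the 4 tested inhibitors and 0.15 in the G1/S group, beside 0.01 over all genes tested. The 4 inhibitors stood apart at -0.06, 0.19, 1.33 and 2.59, so their median describes none of them. In 19 members every TG+ mouse was above every TG− mouse, where 23.4% of all genes were so, and in 1 member (Cdk4) every TG+ mouse was below, where 20.8% were. The exact permutation test over the 20 assignments of mice gave each of these 20 members its smallest possible 2-sided p, 0.1. In bulk tissue, more cells of a type and more RNA per cell cannot be told apart.

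**Figure D2:**
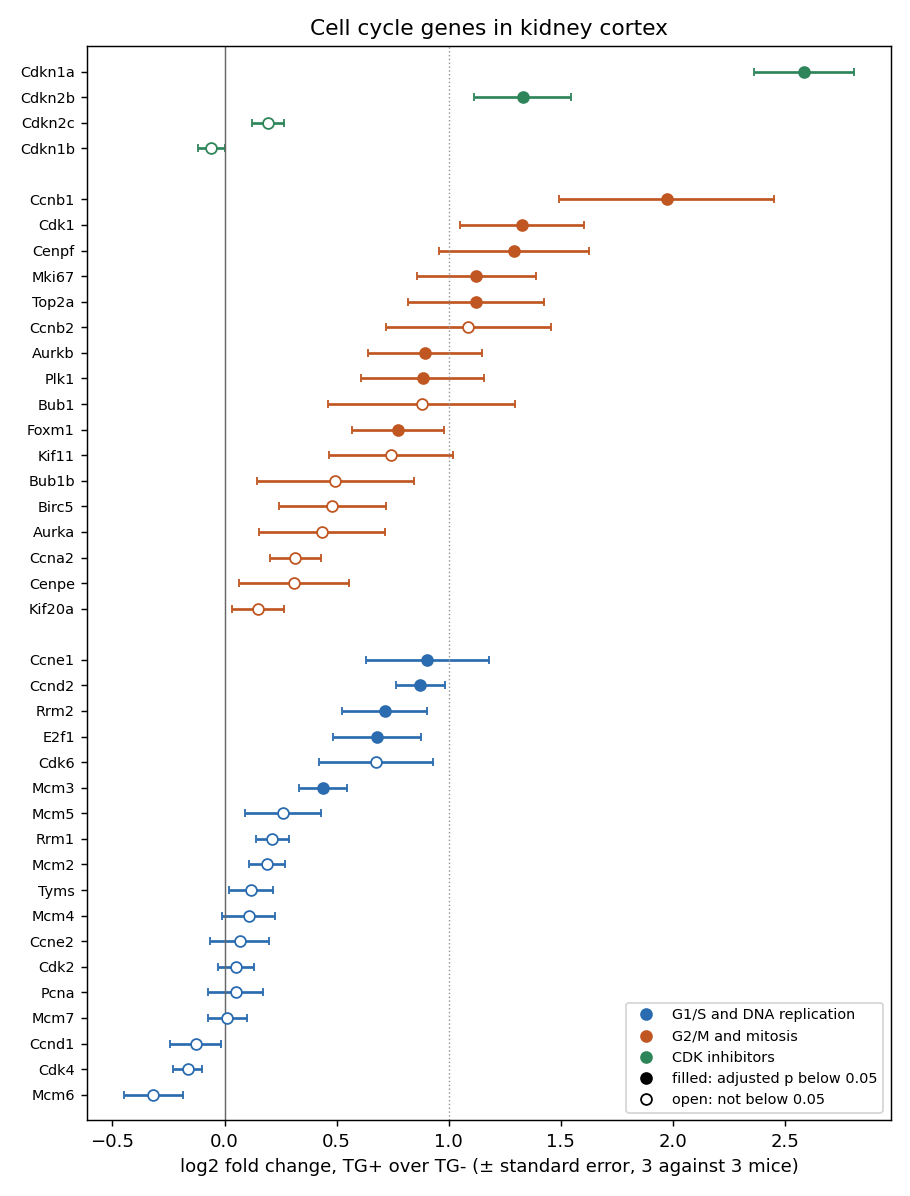
Log2 fold change, TG+ over TG−, of the 39 members tested, with its standard error, from 3 mice against 3. Filled points passed an adjusted p of 0.05 in edgeR's quasi-likelihood test; the dotted line marks a 2-fold difference, Cdkn1a lies at 2.59, and all 17 G2/M members lie above 0.

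The number of called members depended on single mice. Without 43-26 the 15 became 5, without 43-49 or without 43-50 they became 6, without 43-75 or without 43-76 they became 8, and without 43-29 they became 17. For the G2/M group the count of 8 fell to between 1 (without 43-50) and 4 (without 43-76) when any mouse but 43-29 was left out, and it was 10 without 43-29. Cdkn1a, Cdkn2b, Ccnd2 and Cdk1 stayed below an adjusted p of 0.05 in all 6 such fits. Fits with fewer mice also called fewer genes in general. At the study's threshold, 732 of all genes tested were higher in the main fit and 469 to 633 without a mouse. Counts over all genes at an adjusted p below 0.05 are not given for these fits. Whether the members lost more calls than other genes was therefore not tested.

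Among the CDK inhibitors Cdkn1a (ENSMUSG00000023067), which encodes p21, showed the largest difference of all 39 members. It stood at 78.1, 56.9 and 67.0 normalized CPM in TG+ mice and at 15.4, 8.32 and 9.99 in TG− mice. The lowest TG+ mouse was thus far above the highest TG− mouse. The log2 fold change was 2.59 (SE 0.22), a 6.00-fold difference, with an adjusted p of 0.000245, and it remained past the study's threshold in each of 12 alternative fits. The kidneys of a mouse were close: 77.5 and 78.5 CPM in 43-29, and 59.96 and 53.69 in 43-49.

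Cdkn2b (ENSMUSG00000073802), which encodes p15 of the INK4 family, rose from a low level. Its reads were 42, 43 and 40 in TG+ mice and 18, 20 and 12 in TG− mice, or 0.849, 0.758 and 0.797 CPM against 0.351, 0.350 and 0.246. The groups did not overlap, and the log2 fold change was 1.33 (SE 0.22, adjusted p = 0.00419). It stayed past the study's threshold in 6 of 12 alternative fits and in none that left out a mouse.

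The other inhibitors did not pass in the main fit. Cdkn1b, which encodes p27, stood at 58.8, 58.4 and 60.3 CPM in TG+ and at 57.5, 61.9 and 65.6 in TG−, overlapping groups with a log2 difference of -0.06 (95% interval -0.20 to 0.08, adjusted p = 0.517) that was 0.061 with libraries scaled by size alone. Cdkn2c, which encodes p18 of the INK4 family, stood at 20.1, 19.6 and 20.2 CPM in TG+ and at 18.5, 16.1 and 17.8 in TG−; the groups did not overlap, and the log2 difference was 0.19 (SE 0.07, adjusted p = 0.0776). Cdkn2a, the locus of p16 and p19ARF, was barely detected, with 1, 4 and 2 reads in TG+ mice and 6, 2 and 2 in TG− mice, too few to test.

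**Figure D3:**
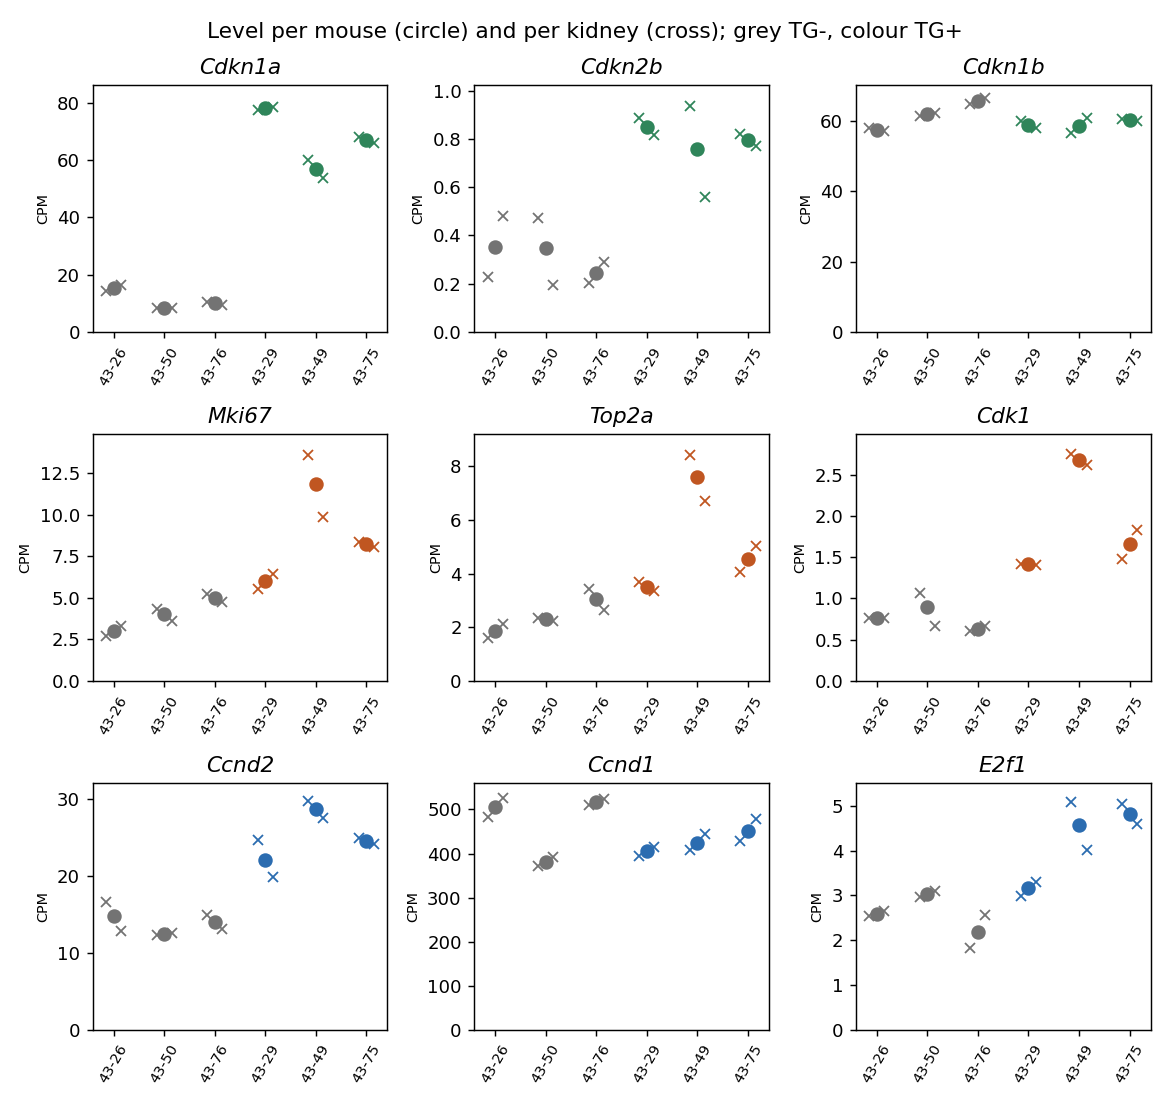
Normalized CPM of 9 members in each mouse (circles) and in each of its kidneys (crosses), TG− in grey and TG+ in colour, each axis starting at 0. The TG+ mice of Cdkn1a lie between 56.9 and 78.1 CPM and the TG− mice between 8.32 and 15.4, whereas Cdkn1b and Ccnd1 overlap; in Mki67 and Top2a both kidneys of 43-49 are the highest.

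In the G2/M and mitosis group all 17 members had a log2 fold change above 0, from 0.15 (Kif20a) to 1.97 (Ccnb1), and 8 rose. Mki67 (ENSMUSG00000031004), the Ki-67 proliferation marker, stood at 6.03, 11.8 and 8.25 CPM in TG+ mice and at 3.02, 4.01 and 4.97 in TG− mice. All TG+ mice were above all TG− mice, and 43-29 was the TG+ mouse closest to them. The log2 fold change was 1.12 (SE 0.27, adjusted p = 0.0183). Top2a (ENSMUSG00000020914), topoisomerase IIα, which untangles sister chromatids, stood at 3.50, 7.60 and 4.54 CPM against 1.85, 2.31 and 3.05, again without overlap and with 43-49 well above the rest. Its log2 fold change was 1.12 (SE 0.30, adjusted p = 0.0304).

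The mitotic kinase and its cyclin rose as well. Cdk1 (ENSMUSG00000019942) stood at 1.42, 2.68 and 1.65 CPM in TG+ and at 0.760, 0.893 and 0.635 in TG−, so that each TG+ mouse exceeded the highest TG− mouse (log2 fold change 1.33, SE 0.28, adjusted p = 0.0112). Ccnb1 (ENSMUSG00000041431) rested on few reads, 11, 39 and 26 in TG+ mice and 8, 7 and 4 in TG− mice. The lowest TG+ mouse had hardly more reads than the highest TG− mouse, and the log2 fold change of 1.97 had a SE of 0.48 (adjusted p = 0.0206). Ccnb2, which encodes cyclin B2, overlapped between genotypes at 1.03, 2.70 and 1.85 CPM against 0.604, 1.14 and 0.880 (log2 difference 1.09, adjusted p = 0.0645), but each TG+ mouse was above the TG− mouse that the name of the deposited table lists with it, and the fit with these pairs as a replicate block called it at the study's threshold. Ccna2, which encodes cyclin A2, overlaps exons of Exosc9 on the other strand in GENCODE and stood at 6.53, 7.76 and 6.57 CPM against 6.00, 5.03 and 5.75, without overlap of groups but with an adjusted p of 0.0752 (log2 difference 0.32).

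Kinases, a kinetochore protein and a regulator of mitosis rose too. Aurkb (ENSMUSG00000020897), Aurora B of the chromosomal passenger complex, stood at 1.01, 1.71 and 0.996 CPM in TG+ and at 0.663, 0.648 and 0.696 in TG− (log2 fold change 0.89, SE 0.25, adjusted p = 0.0352). Plk1 (ENSMUSG00000030867), Polo-like kinase 1, stood at 0.687, 1.34 and 1.06 CPM against 0.624, 0.578 and 0.471 (log2 fold change 0.88, SE 0.27, adjusted p = 0.049). In both genes the groups did not overlap, but in Plk1 the gap between 43-29 and 43-26 was 34 against 32 reads. The call of Plk1 was lost in 8 of 12 alternative fits, among them the fit with the listed pairs of mice as a replicate block (adjusted p = 0.0522), DESeq2 (0.0617) and upper-quartile scaling (0.0504). Cenpf (ENSMUSG00000026605), a kinetochore and spindle protein, stood at 1.40, 3.16 and 2.57 CPM against 0.702, 0.928 and 1.29 (log2 fold change 1.29, SE 0.33, adjusted p = 0.026). Foxm1 (ENSMUSG00000001517), the transcription factor of mitotic genes, whose exons overlap Tex52, stood at 1.88, 3.03 and 2.91 CPM against 1.38, 1.59 and 1.60 (log2 fold change 0.77, SE 0.20, adjusted p = 0.0274). Both were without overlap, with 43-29 the lowest TG+ mouse. The 7 others, the checkpoint kinase genes Bub1 and Bub1b, the kinase Aurka (Aurora A), Birc5 (survivin, a partner of Aurora B) and the motor genes Cenpe, Kif11 and Kif20a, had log2 differences of 0.15 to 0.88 and adjusted p values between 0.0867 (Kif11) and 0.392 (Cenpe), with overlapping groups.

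Among the TG+ mice 43-49 was the highest for 16 of 17 G2/M members and 43-29 the lowest for 16 of 17, where over all genes tested 43-49 was the highest for 38.3% and 43-29 the lowest for 33.5%. Both mice also held these places for 10 of 18 G1/S members each, and for 14 and 17 of the 24 further replication genes. Summed over the group, the level was 37.3, 62.8 and 48.9 CPM in TG+ mice and 27.4, 32.7 and 33.6 in TG− mice. Every TG+ mouse was above every TG− mouse, and the sums of the 2 kidneys were 37.3 and 37.3 CPM in 43-29, 67.8 and 57.5 in 43-49 and 48.5 and 49.3 in 43-75. The kidneys of 43-49 thus lay farther apart than the lowest TG+ mouse and the highest TG− mouse. Cdkn1a instead was highest in 43-29 and lowest among TG+ mice in 43-49.

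**Figure D4:**
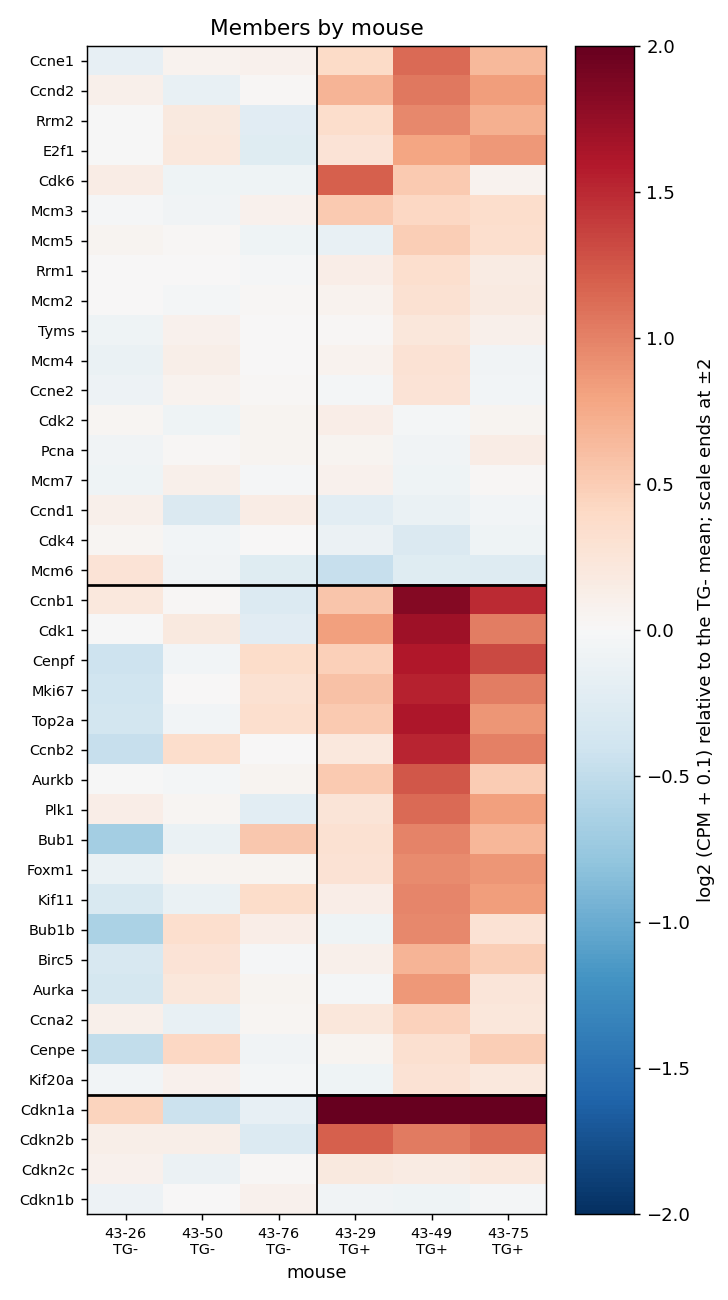
Each of the 39 tested members (rows, grouped as G1/S, G2/M and inhibitors from top to bottom) in each mouse (columns), coloured by log2 of CPM plus 0.1 relative to the TG− mean, blue below and red above it, with the scale ending at 2 either way. In the G2/M block 43-49 is the darkest of the TG+ columns and 43-29 the palest, and the row of Cdkn1a is at the top of the scale in all 3 TG+ mice.

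In the G1/S and replication group 5 of 18 members rose, each by less than 2-fold. Ccnd2 (ENSMUSG00000000184), cyclin D2, stood at 22.02, 28.61 and 24.58 CPM in TG+ and at 14.7, 12.4 and 14.0 in TG−, clear of overlap (log2 fold change 0.87, SE 0.11, adjusted p = 0.00136). Ccne1 (ENSMUSG00000002068), cyclin E1, which drives entry into S phase with Cdk2, had 26, 54 and 33 reads in TG+ and 17, 23 and 20 in TG− (log2 fold change 0.90, SE 0.27, adjusted p = 0.0451), a call lost in 7 of 12 alternative fits, DESeq2 (adjusted p = 0.0956) among them. E2f1 (ENSMUSG00000027490), the transcription factor of replication genes, stood at 3.15, 4.57 and 4.82 CPM against 2.59, 3.03 and 2.19 (log2 fold change 0.68, SE 0.20, adjusted p = 0.0373). In all 3 genes the TG+ mice lay above the TG− mice, for E2f1 narrowly in 43-29. Rrm2 (ENSMUSG00000020649), the small subunit of ribonucleotide reductase, stood at 3.52, 5.45 and 4.58 CPM against 2.75, 3.17 and 2.33 (log2 fold change 0.71, SE 0.19, adjusted p = 0.0279). Mcm3 (ENSMUSG00000041859), 1 of the subunits of the MCM helicase, stood at 5.40, 4.97 and 4.76 CPM against 3.67, 3.52 and 3.97 (log2 fold change 0.44, SE 0.11, adjusted p = 0.0202). The groups of both genes did not overlap.

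The other MCM subunits did not pass in the main fit, from -0.32 on the log2 scale for Mcm6 (adjusted p = 0.114) to 0.26 for Mcm5 (adjusted p = 0.296). Mcm2 stood at 13.6, 16.0 and 14.8 CPM in TG+ and at 13.1, 12.6 and 13.3 in TG− (log2 difference 0.19, 95% interval 0.0039 to 0.3733, adjusted p = 0.121). With each kidney as its own library (adjusted p = 0.0135) and with libraries scaled by size alone (0.0369) Mcm2 was called higher. Mcm7 has exons that overlap Ap4m1, Cops6 and 2 microRNA genes, and its log2 difference was 0.01 (adjusted p = 0.932). Pcna, the sliding clamp of DNA polymerases, stood at 3.01, 2.73 and 3.23 CPM against 2.75, 2.92 and 2.99, overlapping groups with a log2 difference of 0.05 (95% interval -0.23 to 0.33, adjusted p = 0.803) that was -0.02 without 43-75. Ccnd1 (ENSMUSG00000070348) overlapped too, at 406.0, 424.9 and 452.2 CPM against 504.5, 381.6 and 517.1 (log2 difference -0.13, 95% interval -0.39 to 0.13, adjusted p = 0.447). Without 43-50, the lowest of the 3 TG− mice, it was lower in TG+ at an adjusted p below 0.05 (log2 fold change -0.26). Cdk4, whose exons overlap Tspan31 on the other strand, was the only member with every TG+ mouse below every TG− mouse (log2 difference -0.16, adjusted p = 0.104). Cdk6, the other partner of D-type cyclins, had a log2 difference of 0.67 (adjusted p = 0.0876). Cdk2, Ccne2, Mcm4, Rrm1 (the large reductase subunit) and Tyms (thymidylate synthase) had log2 differences of 0.05 to 0.21, none past the threshold.

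Further genes of the same pathways were set beside the members, and their counts are to be read against the 15.4% of all genes tested that were higher and the 10.9% that were lower at an adjusted p below 0.05. Of 24 further replication genes 5 rose and 1 fell, which is no result about the list beside those shares, with a median log2 fold change of 0.14. The smallest adjusted p values belonged to Mcm10, a replication initiation factor, at 10.03 CPM in TG+ and 6.04 in TG− (log2 fold change 0.73, adjusted p = 0.00253), to Ccnd3, cyclin D3, at 61.6 and 49.8 CPM (0.31, adjusted p = 0.00635) and to E2f8, a repressor of the E2F family, at 0.730 and 0.297 CPM (1.29, adjusted p = 0.0147). The gene that fell was Tk1, thymidine kinase, named here after its value was seen (log2 fold change -0.36, adjusted p = 0.0464). Of 31 tested of 32 further mitosis genes 12 rose and 0 fell, with a median of 0.75. Ect2, a guanine nucleotide exchange factor of cytokinesis, rose past the study's threshold from 3.38 to 7.10 CPM (log2 fold change 1.07, adjusted p = 0.00467), Kif23, a motor of the same step, rose by 0.77 (adjusted p = 0.0152) and Cenpa, the centromeric histone, by 0.73 (adjusted p = 0.0159). The order of mice recurred there, with 43-49 the highest TG+ mouse for 25 of 31 genes and 43-29 the lowest for 23.

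Regulators that act upstream of these genes were counted in the same way. Of 15 genes of the RB and DREAM complexes 0 rose and 3 fell, where 15.4% and 10.9% of all genes did, with a median of -0.01. At 15 genes these counts are no result about the list. Those that fell were Rbl2 (p130, a relative of the retinoblastoma protein), which stood at 101 CPM in TG+ and 122 in TG− (log2 fold change -0.28, adjusted p = 0.0112), Tfdp2 (an E2F partner, -0.31, adjusted p = 0.0236) and Lin52 (a MuvB subunit, -0.38, adjusted p = 0.0291). Of 15 genes of the p53 pathway other than Cdkn1a, 4 rose and 1 fell, with a median of 0.07, beside the same 15.4% and 10.9% of all genes, and at 15 genes this is no result about the list. Btg2, an antiproliferative gene, rose from 17.9 to 43.9 CPM (log2 fold change 1.29, adjusted p = 0.000362), Eda2r, a receptor of the TNF family, from 2.48 to 5.92 CPM (1.26, adjusted p = 0.000436) and Plk2 from 10.6 to 15.2 CPM (0.52, adjusted p = 0.0168). Named after their values were seen, Trp53 was the other gene that rose (0.28, adjusted p = 0.0199) and Ccng1 the one that fell (-0.22, adjusted p = 0.0391), while Mdm2, which encodes the ubiquitin ligase of p53, stood at a log2 difference of -0.15 (adjusted p = 0.125).

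Markers of other cell types were counted in the same fit, again beside the 15.4% of all genes tested that were higher and the 10.9% that were lower. The 1 of 8 named below for other nephron segments is near the latter share and no result about that list. At an adjusted p below 0.05, 7 of 8 B and plasma cell, 4 of 8 T cell, 6 of 8 macrophage, 8 of 8 endothelial, 5 of 8 stroma and 6 of 10 tubule injury markers were higher, and 8 of 12 proximal tubule markers and 1 of 8 of other nephron segments were lower. All 8 B and plasma cell markers were above 0 (median log2 fold change 1.91), with a summed level of 1029 to 1717 CPM in TG+ mice and 248.7 to 333.6 CPM in TG− mice, of which Igkc and Jchain gave the most; 43-49 was the highest TG+ mouse for 7 of 8 and 43-29 the lowest for 8 of 8. All 8 T cell markers were above 0 (median 0.93, sums of 9.84 to 14.1 CPM against 6.39 to 7.09), and 43-49 was the highest for 7 of 8 but 43-75 the lowest for 6 of 8. The 8 macrophage markers had a median of 0.67 (181 to 210 CPM against 109 to 147), the 8 endothelial markers 0.71 (670 to 719 against 383 to 500 CPM) and the 8 stroma markers 0.69 (249 to 334 against 165 to 197 CPM), all above 0, and in stroma 43-29 was the lowest for 7 of 8. The 10 tubule injury markers had a median of 1.19 (684 to 828 against 571 to 707 CPM), and 43-29 was the highest TG+ mouse for 10 of 10, as for Cdkn1a. Spp1, at a log2 difference of 0.12 (adjusted p = 0.367), gave most of the injury sums. No marker of these 6 lists was at 0 reads in any mouse. The 12 proximal tubule markers, which were abundant in every mouse, were all below 0 (median -0.65, 28480 to 31680 against 39450 to 42310 CPM), and the 8 markers of other nephron segments had a median of 0.05, with 43-49 the highest TG+ mouse for 7 of 8 and 43-29 the lowest for 6 of 8. Of 4 erythroid markers 3 were tested, of which 2 were higher and 1 lower at that threshold. The part of these cell types in the differences of the cell cycle genes was not tested. Hif1a itself did not pass the test (log2 difference -0.12, adjusted p = 0.343), and the sources used here do not say if transgene reads count towards it.

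**Figure D5:**
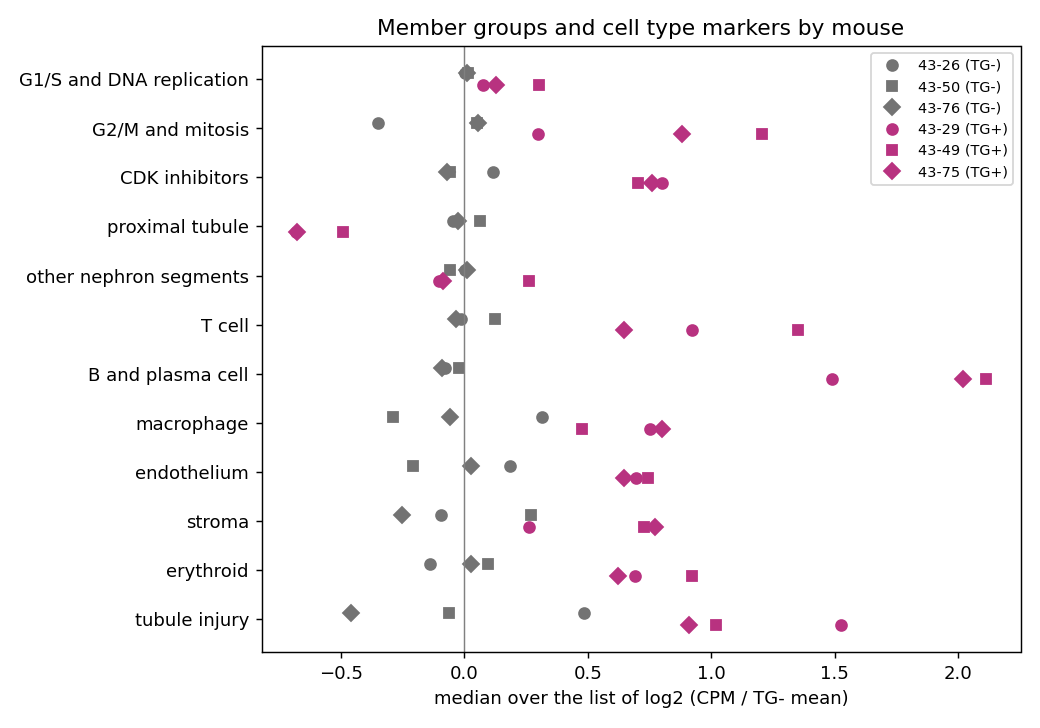
Median over each list of log2 CPM relative to the TG− mean (horizontal), for the 3 member groups and 9 marker lists (rows) in each mouse, TG− in grey and TG+ in colour. The TG+ mice lie below the TG− mice in proximal tubule, overlap them in other nephron segments and stroma, and lie above them in the other lists; 43-49 leads the G2/M list and 43-29 the injury list.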

How the data were processed

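RNA from a thin outer slice of kidney cortex was sequenced by the authors as single-end Illumina reads and analysed mainly with the Tuxedo tools; the submitters' processing notes name mm9, and the counting program, annotation release and handling of strand are not given in the sources used here. The authors deposited read counts for 37681 Ensembl genes in 12 libraries, without normalization, and RPKM values that they scaled by a method the header calls BUQ, and genes with 0 reads carry an RPKM above 0. The columns of the authors' own comparison (fold changes and p-values) and of log2 RPKM were not used.

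Counts of the 2 kidneys were summed per mouse (3 TG+ and 3 TG−), because kidneys of a mouse are not independent. The totals, 48052131 to 60506785 reads, bound the precision of low genes by counting error, and intervals of the counts were not computed. Genes were kept by filterByExpr, scaled by TMM and compared by the quasi-likelihood test of edgeR with Benjamini-Hochberg adjustment (edgeR 4.0.16, limma 3.58.1, R 4.3.3). The procedure was also run on simulated counts with 1 fixed dispersion, where changes larger than that of any member but Cdkn1a were placed in genes with more reads. That run does not cover smaller changes or members with few reads, such as Ccnb1 and Bub1. Alternatives were DESeq2 1.42.0, no filter, libraries as replicates, pairs as a block, single mice left out, and 2 other scalings. RPKM was averaged over kidneys. Symbols and promoters came from GENCODE M21 and RefSeq (GRCm38.p6), which differs from mm9, so gene coordinates other than those of printed promoters are not given; of several starts the one listed first was used.

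Members and lists were chosen with earlier results of these data known. By the rule, values per mouse are given for members at an adjusted p below 0.05, all 5 inhibitors and 9 set genes. The 3 genes of each further list with the smallest adjusted p are named with log2 fold changes, and most of them with group means. This gives 33 genes, above the 30 intended. Other members (such as Ccnb2, Ccna2, Cdk4, Cdk6 and Mcm7) are named to account for all 40, and their values were picked for print after they were seen, as were Tk1, Gmnn, Trp53, Ccng1 and Mdm2. The metabolomics and human samples were not analysed here.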

Additional observations from a re-analysis of the deposited data

How the results depend on the processing

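At the study's threshold the 2 members became 6 with DESeq2, 4 with no filter, 7 with each kidney as its own library, 6 with the replicate block and 15 at an adjusted p of 0.05 without a fold, and 1 to 5 with single mice left out. In 5 of these 6 fits Cdkn1a was the member left, and without 43-29 Mki67, Ccnb1, Cdk1 and Cenpf joined it. At an adjusted p of 0.05 the 15 became 5 to 17 with single mice left out, and the 0 lower members became 2 (Cdk4 and Mcm6) with each kidney as its own library and 0 to 1 (Ccnd1) with single mice left out. The G1/S median was 0.27 with libraries scaled by size alone, and the inhibitor median was 0.19 with no filter, which brings in Cdkn2a, and 0.88 with libraries scaled by size alone; that scaling moved the median of all genes from 0.01 to 0.13. The G2/M median lay between 0.64 and 1.01 with single mice left out. Over the whole table the 732 higher genes became 2982 at an adjusted p of 0.05 and 1534 at 0.01 without a fold, and 469 to 633 with single mice left out; the 41 lower genes became 22 with libraries scaled by size alone, and 2105 and 824 by those rules. Of the named members Cdkn1b turned to 0.061 with libraries scaled by size alone and Pcna lay between -0.02 (without 43-75) and 0.11 with single mice left out, neither called. The causes were not tested.

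The name of the deposited table lists the pairs 43-49 with 43-50, 43-26 with 43-29 and 43-75 with 43-76. Deviations from the group means correlated at 0.353 for 43-29 with 43-26, 0.315 for 43-49 with 43-50 and -0.017 for 43-75 with 43-76 (the other combinations of a TG+ with a TG− mouse lay between -0.355 and 0.025). Not every listed pair reached 0.1, and the pairs are named only by the table, so the fit without them was kept as the main one. In the replicate block 17 members were higher at an adjusted p of 0.05 and 6 at the study's threshold (Mki67, Ccnb2, Cdk1, Cenpf, Cdkn1a and Cdkn2b).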

Other observations

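The values per mouse of some genes counted above are added here. Cdk6 stood at 19.6, 12.2 and 8.96 CPM in the TG+ mice 43-29, 43-49 and 43-75 and at 9.47, 8.05 and 8.003 in the TG− mice, and the high value of 43-29 was present in both kidneys (20.6 and 18.7 CPM). Mcm6 was highest in the TG− mouse 43-26 (29.4 CPM, with 28.3 and 30.4 in its kidneys), against 17.7 to 23.0 CPM in the other 5 mice. Gmnn, which encodes the licensing inhibitor geminin, was lower in every TG+ mouse than in every TG− mouse, like Tk1, at 4.14, 4.74 and 4.44 CPM against 5.11, 6.11 and 5.71 (log2 difference -0.34, adjusted p = 0.0528 in edgeR's quasi-likelihood test). These genes were picked after their values were seen.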
